A study of Mus musculus with 6 samples.

Results

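The probes described here measure 31 genes of the lysosome: cathepsins, glycosidases, lipid-handling enzymes and cofactors, proteins of the lysosomal membrane, and the transcription factor Tfeb. They were found as the non-control spots whose annotation named the gene, by symbol, full name or target transcript. This gave 38 probes and 47 spots for all 31 genes, out of 55681 probes, 59305 spots and 22201 named genes on the array. Of the 38 probes, 3 have an Ensembl transcript as their target. RNA came from 1G11 cells, a mouse microvascular endothelial line labelled with the strain C57BL/6NCrLBR. 1G11-mock cells, labelled as not overexpressing SOD3, were compared with 1G11-SOD3 cells, which overexpress SOD3, the secreted extracellular superoxide dismutase. Before RNA isolation both lines were kept for 6 h with conditioned medium of N202.1A cells, a mouse mammary cancer line. Each group held 3 arrays, stated to be independent experiments, and each group is a single derivative line of 1G11, so that a difference between the lines and an effect of SOD3 cannot be told apart.

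Lysosomes are acidic organelles in which hydrolases degrade proteins, glycans, lipids and material delivered by endocytosis and autophagy. Most soluble lysosomal enzymes receive a mannose 6-phosphate tag in the Golgi and are carried by receptors to endosomes, where falling pH releases them, and cathepsins are then activated by cleavage of their propeptides. TFEB and its relatives bind E-box sequences near the start of many lysosomal genes. In endothelial cells, lysosomes take part in the handling of receptors and lipoproteins, and secreted cathepsins can cleave basement membrane proteins.

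The Sod3 probe, with its single spot in the central block of the grid, read 13.61, 12.66 and 9.86 on the 1G11-mock arrays and 16.37, 16.30 and 16.26 on the 1G11-SOD3 arrays (log2 normalized intensity), a log2 difference of 4.27 (limma adjusted p = 0.0076) and of 2.73 after a position adjustment, in which a smooth surface fitted to each array was subtracted. All array values that follow are on the same scale of log2 normalized intensity. Spots in that block, called the middle here, read dim on 1G11-mock arrays and were kept apart. All 1G11-mock arrays sat in row 2 of the slide and all 1G11-SOD3 arrays in row 1, so that slide row and group cannot be told apart. Well above background is the scanner software's own flag for a spot, and a probe without it is called near background. Of the endothelial markers, 3 of 10 were well above background on all 6 arrays (Vwf, Eng and Kdr), Pecam1 was so on 4, and Cdh5, Tek, Tie1, Erg, Emcn and Flt1 on none. Of the mesenchymal markers, 4 of 6 were higher in 1G11-SOD3: Col1a1 by 8.55-fold, Acta2 by 6.14-fold, Pdgfrb, well above background on 1 of the 3 1G11-mock arrays, by 5.24-fold and Col1a2, which was near background on the 1G11-mock arrays, by at least 1.36-fold. Their summed intensity (log2) ranged from 12.30 to 12.94 on 1G11-mock and from 14.84 to 15.20 on 1G11-SOD3 arrays, and its part in the results below was not tested. The summed endothelial markers ranged from 14.31 to 14.84 and from 13.65 to 13.90, with Vwf lower in 1G11-SOD3 (log2 difference -1.65, limma adjusted p = 0.00326). Their part was not tested either. Of 5 epithelial markers none was called, Krt19 was well above background on all 6 arrays, and the sum ranged from 16.03 to 16.77 and from 15.43 to 16.36. Krt19 alone ranged from 16.02 to 16.76 and from 15.40 to 16.35, so that this sum reads little besides Krt19.

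Ctsh, Neu1 and Lamp2 were the members called lower in 1G11-SOD3 cells, and no member was called higher. Of these 3 only Ctsh was called under all 14 alternative settings run. The arrays read bulk RNA, in which fewer cells of a kind and less transcript per cell cannot be told apart. Ctsh, an aminopeptidase among the cysteine cathepsins, was 2.97-fold lower. Lamp2, a heavily glycosylated protein of the lysosomal membrane needed for fusion with autophagosomes, was lower on both of its probes, by 2.52-fold and 2.2-fold. Neu1, the sialidase that removes terminal sialic acids from glycoproteins and glycolipids, was 2.13-fold lower. A probe was called when it differed by more than 2-fold with a limma adjusted p below 0.05 over all rows of the array. By that rule, 4 of 36 member probes outside the middle were called lower, against a background of 1.2% of the 49526 probes there, and none was called higher, against 0.66%. At an unadjusted p below 0.05, 12 member probes were lower, where 7.99% of all probes outside the middle were, and 1 was higher, where 4.68% were. Among probes well above background on all 6 arrays, the background of lower calls was 3.29%, and all 4 calls fell among the 30 member probes of that kind. Such a matched background was not computed for the unadjusted p. The 4 probes measure 3 genes, since the Lamp2 probes share a target gene.

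The Ctsh probe, at chr9:89970828-89970887 in the array annotation (genome build not given in the sources used here), read 17.09, 17.38 and 17.54 on the 1G11-mock arrays and 15.72, 15.62 and 15.96 on the 1G11-SOD3 arrays. The lowest 1G11-mock value lay above the highest 1G11-SOD3 value. The log2 difference was -1.57 (SE 0.229, 95% confidence interval -2.07 to -1.07, adjusted p = 0.00392). Adjusting each spot for its place on the array left a difference of -1.35 (adjusted p = 0.0103), and the call held under all 14 alternative settings run.

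The Lamp2 probes target 2 transcript variants named in the array annotation. The variant 1 probe (chrX:35777505-35777564) read 13.13, 12.90 and 13.27 on the 1G11-mock arrays and 11.53, 11.51 and 12.25 on the 1G11-SOD3 arrays. The variant 2 probe (chrX:35772774-35772833) read 15.34, 15.01 and 15.13 on the 1G11-mock arrays and 13.82, 13.78 and 14.45 on the 1G11-SOD3 arrays. On both probes the groups did not overlap, and 1G11-SOD3 replicate 3 lay nearest to the 1G11-mock arrays. The log2 differences were -1.33 (SE 0.261, adjusted p = 0.0187) for variant 1 and -1.14 (SE 0.251, adjusted p = 0.0329) for variant 2. Both calls were lost with the position adjustment, which gave -0.83 (adjusted p = 0.0749) and -0.86 (adjusted p = 0.112), and the fitted surface itself differed between the groups by -0.47 and -0.26 at these spots.

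Neu1 (chr17:35072105-35072164) read 14.91, 14.71 and 14.69 on the 1G11-mock arrays and 13.91, 13.62 and 13.49 on the 1G11-SOD3 arrays. The groups were separated by more than the spread within either. The log2 difference of -1.09 (SE 0.223, adjusted p = 0.0234) became -0.99 after the position adjustment, with an adjusted p of 0.0229 and a size just under 2-fold. Without 1 array, the count of member probes called lower was 2 without 1G11-mock replicate 1, 1 without 1G11-mock replicate 2, 2 without 1G11-mock replicate 3, 2 without 1G11-SOD3 replicate 1, 1 without 1G11-SOD3 replicate 2 and 3 without 1G11-SOD3 replicate 3. Over all 49526 probes outside the middle, lower calls in the same order were 524, 291, 386, 292, 319 and 328, against 593 with all 6 arrays. Ctsh was called in each of those fits. After the position adjustment the count of member probes called lower was 1 of 36 (Ctsh), against a background of 0.812%.

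**Figure D1:**
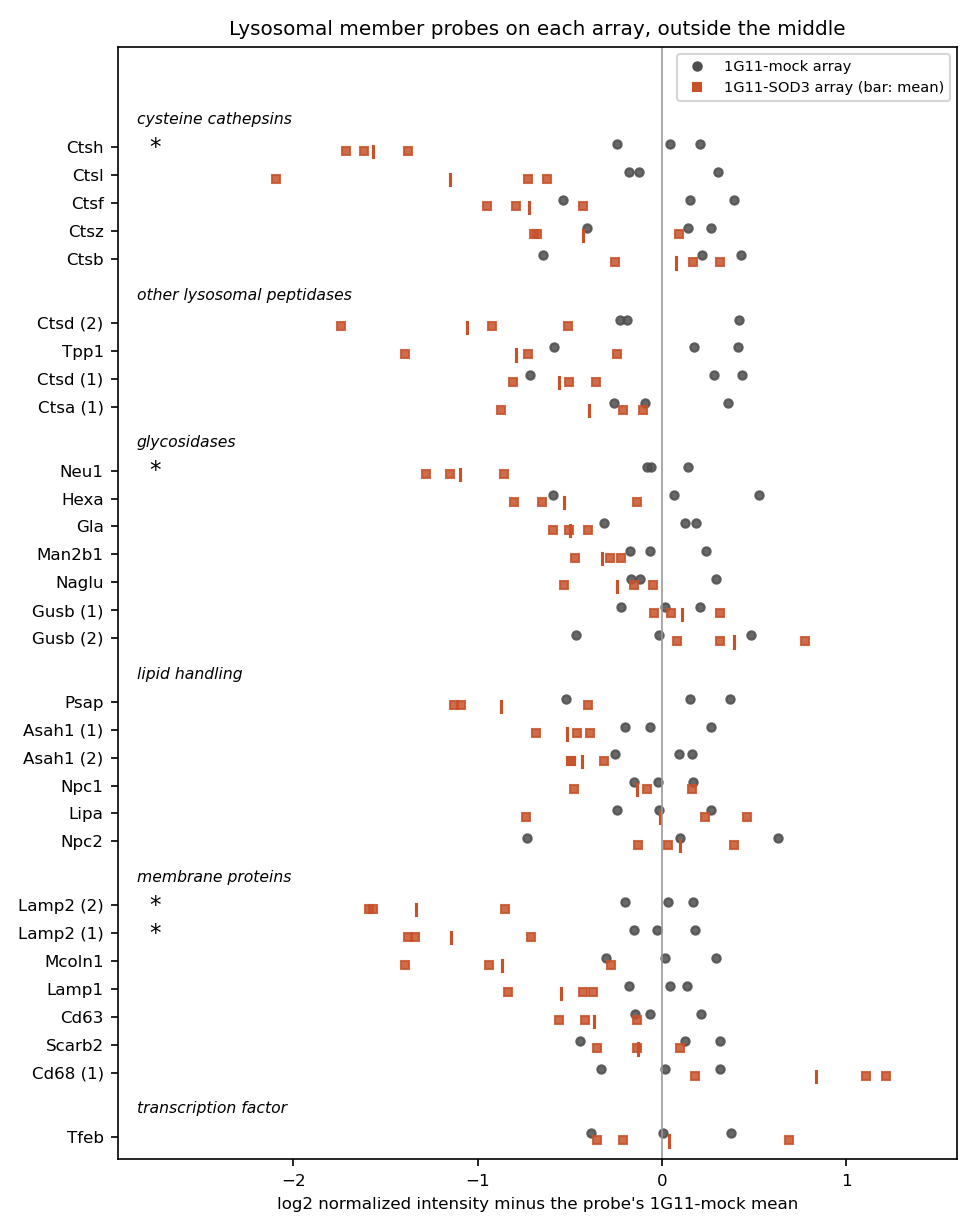
Each row is a member probe outside the middle that was well above background on all 6 arrays, grouped by role, and the horizontal axis is log2 normalized intensity minus that probe's 1G11-mock mean. Circles are the 3 1G11-mock arrays, squares the 3 1G11-SOD3 arrays with their mean as a bar, and asterisks mark the 4 called probes, on which the groups do not overlap. Numbers in brackets count the probes of a gene outside the middle from the brightest, so that Lamp2 (1) is the variant 2 and Lamp2 (2) the variant 1 probe.

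Because TFEB and related factors recognise the E-box CACGTG, extended in many lysosomal genes to TCACGTGA, the region around the annotated starts was read for both words. The windows were RefSeq sequences on GRCm38.p6 from 250 bases before to 50 bases after a start, found for 27 of the 31 genes and not for Asah1, Ctsb, Ctsh and Npc1. Both words equal their own reverse complement, and the shorter lies within the longer. CACGTG was present in windows of 9 of the 27 genes (Ctsa, Ctsd, Ctsf, Ctsl, Gla, Glb1, Lamp1, Mcoln1 and Naglu), while 8.09% of the 27025 genes with a window held it. TCACGTGA was in those of 4 genes (Ctsa, Ctsd, Gla and Mcoln1), against 1.12% of all genes. The 100 bases before the start are shown for Neu1 and Lamp2, the called genes with a window, and, as examples of the genes that hold the longer word, for Ctsd and Mcoln1. Capitals mark CACGTG or TCACGTGA, and all 4 are written 5′ to 3′ on the strand of the gene.
Neu1 (chr17:34931153-34931252, plus strand): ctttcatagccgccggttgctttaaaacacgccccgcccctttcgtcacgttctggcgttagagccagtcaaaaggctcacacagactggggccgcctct
Lamp2 (chrX:38456461-38456560, minus strand): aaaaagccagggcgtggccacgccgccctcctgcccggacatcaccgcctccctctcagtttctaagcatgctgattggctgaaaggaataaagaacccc
Ctsd (chr7:142387828-142387927, minus strand): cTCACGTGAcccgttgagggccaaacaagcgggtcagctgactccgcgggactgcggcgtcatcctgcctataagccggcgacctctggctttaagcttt
Mcoln1 (chr8:3500419-3500518, plus strand): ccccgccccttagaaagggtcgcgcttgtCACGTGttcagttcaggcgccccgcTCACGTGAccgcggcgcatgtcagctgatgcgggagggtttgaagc
Neither word was found in the Neu1 or Lamp2 windows, so the called genes with a window were not among those holding the E-box. A match is a string of letters only, and binding was not measured.

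Among the 9 cysteine cathepsins, papain-type proteases, 5 genes were well above background on all 6 arrays, with differences from -1.57 (Ctsh) to 0.07 (Ctsb). Ctsl, an endopeptidase that also processes other cathepsins, read 15.11, 14.63 and 14.68 on the 1G11-mock arrays and 12.71, 14.18 and 14.08 on the 1G11-SOD3 arrays. Every 1G11-SOD3 value was below every 1G11-mock value, with 1G11-SOD3 replicate 1 far below the other two. Its log2 difference of -1.15 (SE 0.362) did not pass the test (adjusted p = 0.138), nor after the position adjustment (-1.03, adjusted p = 0.0551). Ctsf, an endopeptidase first known for its cleavage of the invariant chain, read 9.85, 10.09 and 9.16 on the 1G11-mock arrays and 9.27, 8.91 and 8.75 on the 1G11-SOD3 arrays. The ranges met, and the difference of -0.72 had an adjusted p of 0.252. It was called lower in 1 of 14 alternatives, with processed signals after scaling to the 75th percentile (log2 difference -1.28, limma adjusted p = 0.0262), where neither Neu1 nor either Lamp2 probe was called. That alternative called 6675 of 49526 probes outside the middle lower, against 593 in the main fit. Ctsz, a carboxypeptidase, read 13.26, 13.93 and 13.81 on the 1G11-mock arrays and 13.76, 12.97 and 12.99 on the 1G11-SOD3 arrays. Here 1G11-SOD3 replicate 1 lay among the 1G11-mock arrays and the difference was -0.43 (adjusted p = 0.555). Ctsb, an abundant cathepsin with endopeptidase and dipeptidyl carboxypeptidase activity, read 16.17, 15.96 and 15.10 on the 1G11-mock arrays and 16.06, 15.91 and 15.49 on the 1G11-SOD3 arrays. The groups overlapped throughout, and the difference was 0.07 (95% confidence interval -0.59 to 0.74). Ctsc, which activates granule proteases of leukocytes, was near background on every array with either of its 2 probes. So was Ctss, a cathepsin of antigen-presenting cells. Ctso was well above background on 1 of the 6 arrays and Ctsk, the collagen-degrading cathepsin of osteoclasts, on 2, and no fold is given for these 4 genes.

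The 4 probes of other peptidases outside the middle had differences below 0, and none passed the test. Ctsd, the major aspartic protease of lysosomes, has 2 probes: the brighter read 17.01, 17.16 and 16.01 on the 1G11-mock arrays and 16.22, 16.37 and 15.92 on the 1G11-SOD3 arrays, and the other read 12.72, 12.76 and 13.37 on the 1G11-mock arrays and 12.44, 11.21 and 12.03 on the 1G11-SOD3 arrays. On the brighter probe 1G11-mock replicate 3 lay among the 1G11-SOD3 arrays, whereas on the other the groups were apart. The differences were -0.55 (adjusted p = 0.457) and -1.05 (adjusted p = 0.128), and with the position adjustment -0.60 (adjusted p = 0.211) and -0.92 (adjusted p = 0.0446), the latter past the p threshold but under 2-fold. Tpp1, a serine protease that removes tripeptides, read 11.50, 11.26 and 10.50 on the 1G11-mock arrays and 10.36, 9.69 and 10.84 on the 1G11-SOD3 arrays. The groups overlapped, and a difference of -0.79 did not pass the test (adjusted p = 0.309). Like Ctsf, Tpp1 was called lower with the scaled processed signal (log2 difference -1.36, limma adjusted p = 0.0308) and under no other alternative. With that signal 6675 of 49526 probes outside the middle were called lower. Ctsa, the carboxypeptidase that also protects Neu1 and beta-galactosidase in a complex, read 9.24, 8.79 and 8.62 on the 1G11-mock arrays and 8.67, 8.78 and 8.01 on the 1G11-SOD3 arrays on its probe outside the middle, which targets transcript variant 1. Its groups overlapped, with a difference of -0.40 (adjusted p = 0.57) that turned to 0.07 with the position adjustment.

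Neu1 apart, no glycosidase measured outside the middle passed the test. Gla, the alpha-galactosidase lacking in Fabry disease, read 16.17, 15.73 and 16.23 on the 1G11-mock arrays and 15.45, 15.54 and 15.64 on the 1G11-SOD3 arrays. The groups did not overlap, yet the difference was -0.50 with an adjusted p of 0.351. Hexa, the alpha subunit of beta-hexosaminidase, read 14.61, 14.15 and 13.49 on the 1G11-mock arrays and 13.95, 13.28 and 13.43 on the 1G11-SOD3 arrays. Its ranges crossed and the difference was -0.53 (adjusted p = 0.479), or -0.84 (adjusted p = 0.0627) after the position adjustment. Man2b1, an alpha-mannosidase of glycoprotein breakdown, read 13.97, 13.86 and 14.27 on the 1G11-mock arrays and 13.81, 13.56 and 13.75 on the 1G11-SOD3 arrays. The groups were just apart, by a difference of -0.33 (adjusted p = 0.565). Naglu, which acts on heparan sulphate, read 13.03, 13.44 and 12.98 on the 1G11-mock arrays and 13.10, 13.00 and 12.62 on the 1G11-SOD3 arrays. The ranges overlapped and the difference was -0.24 (adjusted p = 0.707).

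Gusb, the beta-glucuronidase, was printed 10 times with 1 probe sequence, 7 times outside and 3 times in the middle, so that 1 transcript was read at 10 places of each array. The mean of the outside copies read 12.65, 12.89 and 13.08 on the 1G11-mock arrays and 13.19, 12.92 and 12.83 on the 1G11-SOD3 arrays, a difference of 0.11 (adjusted p = 0.88). On 1G11-SOD3 replicate 1, 2 of the copies were flagged as outliers by the scanner software and left out of that mean. The 3 middle copies averaged 11.78, 11.49 and 9.67 on the 1G11-mock arrays and 13.17, 12.60 and 12.58 on the 1G11-SOD3 arrays, a difference of 1.80 (adjusted p = 0.0621). Copy by copy, with the 2 flagged spots kept, the difference ran from -0.37 to 0.44 outside and from 1.02 to 2.88 in the middle. The dimmest middle copy read 7.79 on 1G11-mock replicate 3, where the outside copies lay between 12.75 and 13.41. After the position adjustment the middle copies differed by 0.36 to 0.96 and the outside copies, flagged spots again kept, by 0.12 to 0.45. A separate Gusb probe of 1 spot outside the middle read 11.54, 11.09 and 12.04 on the 1G11-mock arrays and 11.87, 12.33 and 11.64 on the 1G11-SOD3 arrays, with overlapping groups and a difference of 0.39 (adjusted p = 0.607).

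**Figure D2:**
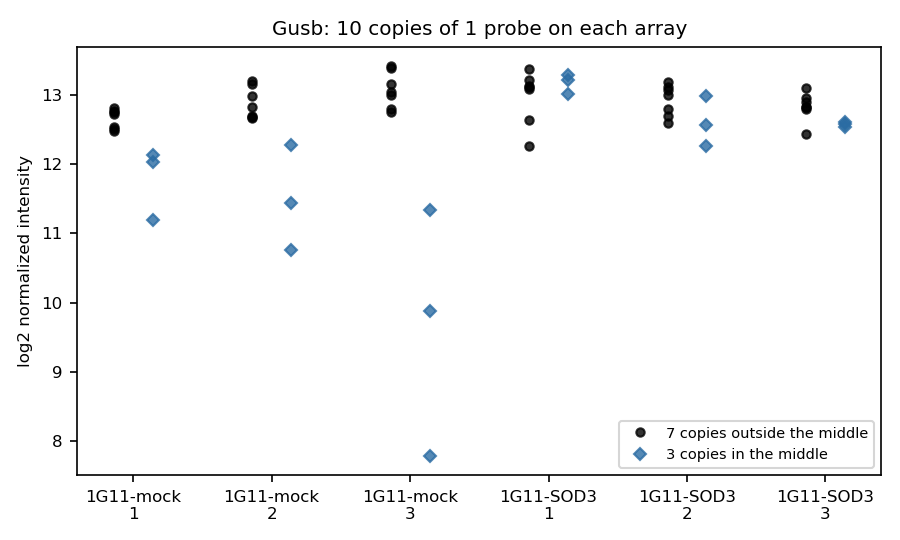
Log2 normalized intensity of the 10 copies of the Gusb probe on each of the 6 arrays, with circles for the 7 copies outside the middle and diamonds for the 3 in the middle. Spots flagged as outliers are included. The middle copies lie below the outside copies on the 1G11-mock arrays, down to 7.79 on replicate 3, and among or near them on the 1G11-SOD3 arrays.

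Glb1 and the other Ctsa probe also lie in the middle. Glb1, the lysosomal beta-galactosidase, is represented only there and read 12.13, 12.14 and 10.48 on the 1G11-mock arrays and 12.72, 12.31 and 13.04 on the 1G11-SOD3 arrays. Its difference of 1.11 (adjusted p = 0.221) became 0.33 (adjusted p = 0.502) with the position adjustment. The Ctsa probe for transcript variant 2 read 14.40, 13.13 and 10.96 on the 1G11-mock arrays and 14.97, 14.32 and 14.31 on the 1G11-SOD3 arrays, and its difference of 1.70 (adjusted p = 0.237) turned to -0.34. All 3 middle rows were higher in 1G11-SOD3 as normalized, and none was called. In the middle as a whole, 11.9% of 6445 rows were called higher and 0.0621% lower.

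Of the lipid-handling group, no gene passed the test. Psap, the precursor of the saposins that present sphingolipids to their hydrolases, read 13.49, 14.16 and 14.38 on the 1G11-mock arrays and 12.92, 12.88 and 13.61 on the 1G11-SOD3 arrays. 1G11-SOD3 replicate 3 overlapped the 1G11-mock range, and the difference was -0.87 (adjusted p = 0.177). Asah1, acid ceramidase, read 12.47, 12.94 and 12.61 on the 1G11-mock arrays and 12.28, 12.21 and 11.99 on the 1G11-SOD3 arrays on its brighter probe. Its groups did not overlap on either probe, with differences of -0.52 (adjusted p = 0.33) and -0.44 (adjusted p = 0.412). Npc1 and Npc2 pass cholesterol out of the lysosome, Npc1 in the membrane and Npc2 as a soluble carrier. Npc1 read 9.53, 9.85 and 9.66 on the 1G11-mock arrays and 9.84, 9.60 and 9.20 on the 1G11-SOD3 arrays, a difference of -0.13. Npc2 read 14.04, 14.57 and 13.21 on the 1G11-mock arrays and 14.33, 13.81 and 13.97 on the 1G11-SOD3 arrays, a difference of 0.10, with a 1G11-mock spread wider than the whole 1G11-SOD3 range. Lipa, the acid lipase that frees cholesterol from its esters, read 10.84, 11.12 and 10.61 on the 1G11-mock arrays and 10.12, 11.09 and 11.32 on the 1G11-SOD3 arrays. Its difference was -0.01 (95% confidence interval -0.70 to 0.67). The sign of the difference for Lipa, Npc1 and Npc2 turned with the position adjustment, to 0.29, 0.09 and -0.47.

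Apart from Lamp2, the membrane proteins did not pass the test. Lamp1, the close relative of Lamp2, read 17.61, 17.52 and 17.30 on the 1G11-mock arrays and 17.10, 17.05 and 16.64 on the 1G11-SOD3 arrays. Its groups did not overlap, and the difference of -0.54 had an adjusted p of 0.305. Whether Lamp2 differed more than Lamp1 was not tested. Mcoln1, the calcium channel mucolipin 1, read 13.47, 13.75 and 13.15 on the 1G11-mock arrays and 12.06, 13.18 and 12.52 on the 1G11-SOD3 arrays. 1G11-SOD3 replicate 2 reached just above the lowest 1G11-mock array, and the difference was -0.87 (adjusted p = 0.185). Cd63, a tetraspanin of late endosomes and, in endothelial cells, of Weibel-Palade bodies, read 17.60, 17.24 and 17.32 on the 1G11-mock arrays and 17.25, 16.97 and 16.83 on the 1G11-SOD3 arrays. Its groups met, with a difference of -0.37 (adjusted p = 0.514). Scarb2, the receptor that carries beta-glucocerebrosidase to lysosomes, read 10.79, 11.55 and 11.36 on the 1G11-mock arrays and 10.88, 11.33 and 11.10 on the 1G11-SOD3 arrays, an overlapping pair of groups -0.13 apart. Cd68, a glycoprotein of late endosomes best known from macrophages, had the largest positive difference of the member probes outside the middle. Its probe for an Ensembl transcript read 10.44, 11.09 and 10.79 on the 1G11-mock arrays and 11.99, 11.88 and 10.95 on the 1G11-SOD3 arrays. 1G11-SOD3 replicate 3 lay within the 1G11-mock range, and the difference of 0.84 did not pass the test (adjusted p = 0.218). The other Cd68 probe stayed near background on all arrays. Of 10 macrophage markers with a probe outside the middle, none was called. Well above background on all 6 arrays were Itgam (means 14.2 in 1G11-mock and 14.19 in 1G11-SOD3), Cd14 (11.26 and 10.87) and Csf1r (8.97 and 9.36). C1qb and Fcer1g were so on some arrays only, and 5 were near background on all 6 (Adgre1, C1qa, Lyz2, Ptprc and Tyrobp). The summed intensity (log2) of the 10 ranged from 14.33 to 14.66 in 1G11-mock and from 14.34 to 14.69 in 1G11-SOD3. Itgam alone ranged from 13.91 to 14.40 and from 14.06 to 14.44, so that the sum mostly reads Itgam and says little about the other markers. With the position adjustment Itgam differed by -0.76 (adjusted p = 0.0929). Tfeb itself read 9.49, 10.25 and 9.88 on the 1G11-mock arrays and 9.66, 10.56 and 9.52 on the 1G11-SOD3 arrays. Its groups overlapped, with a difference of 0.04 (95% confidence interval -0.64 to 0.73).

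Over the 30 member probes outside the middle that were well above background on all 6 arrays, 24 had a lower mean in 1G11-SOD3 and 6 a higher one, with a median log2 difference of -0.47. Over all 15248 probes of that kind, the median was -0.17 and 64.4% were lower. With the position adjustment, 22 of the 30 member probes had a lower mean, with a median of -0.44, beside a median of 0.02 and 48.0% lower over all probes. The groups did not overlap, with 1G11-SOD3 lower, on 11 of the 30 member probes, against 20.8% of all, and with 1G11-SOD3 higher on none, against 8.04%. By role, the median was -0.72 over 5 cysteine cathepsin probes, -0.67 over 4 of other peptidases, -0.54 over 7 of membrane proteins, -0.33 over 7 of glycosidases and -0.29 over 6 of the lipid-handling group. The 6 other member probes outside the middle, of Ctsc, Ctsk, Ctso, Ctss and Cd68, were not well above background on all 6 arrays and are left out of these counts.

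**Figure D3:**
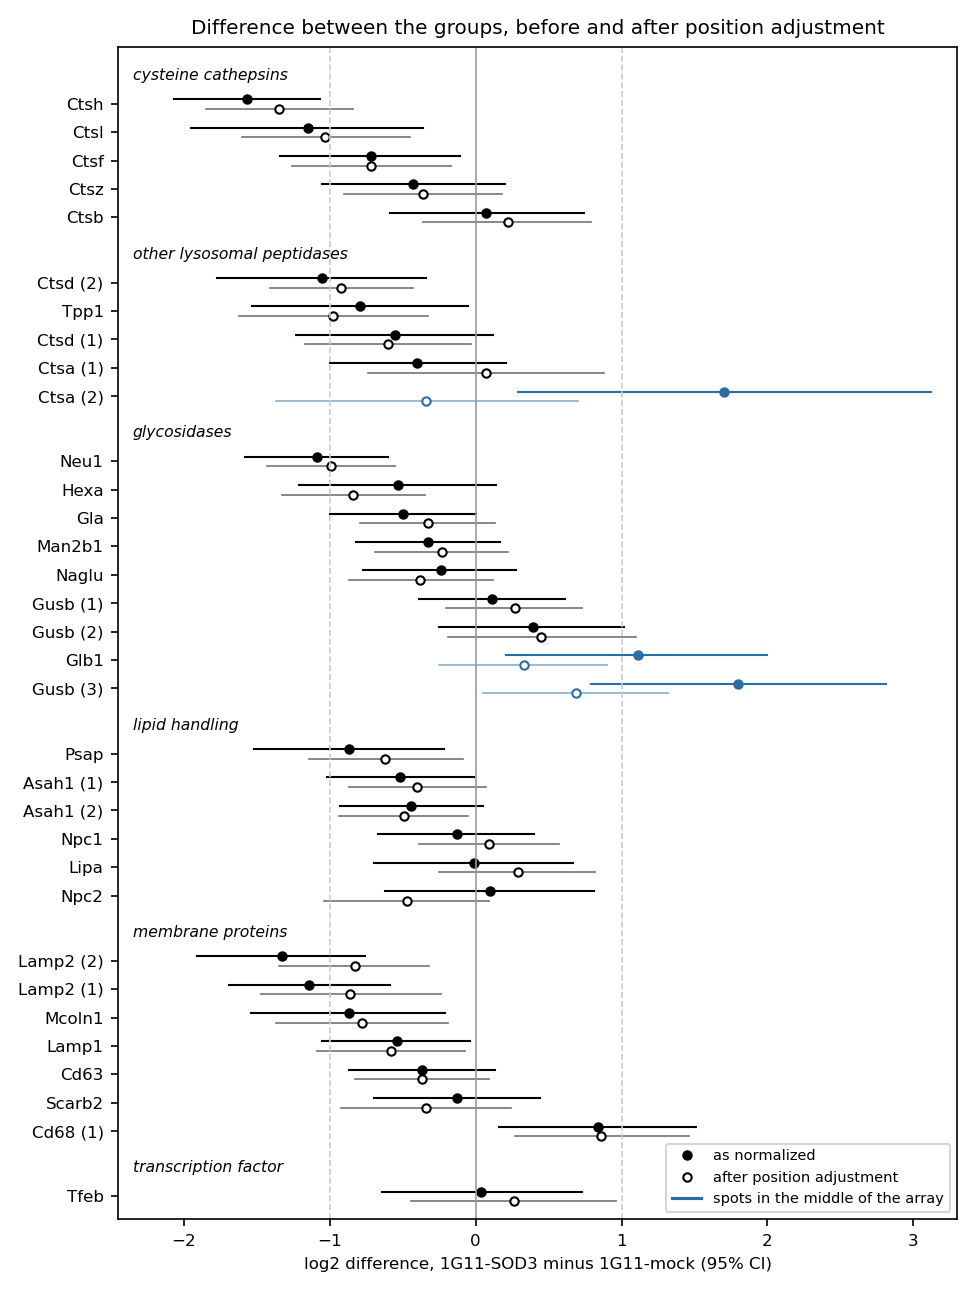
Log2 difference, 1G11-SOD3 minus 1G11-mock, with its 95% confidence interval, for the 33 member rows well above background on all 6 arrays (filled: as normalized, open: after the position adjustment, blue: middle of the array, dashed lines: 2-fold). The blue rows move by 0.78 to 2.04 with the adjustment, while Ctsh and Ctsl, of which Ctsl was not called, stay beyond the 2-fold line.

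Genes around the members were read from lists of other lysosomal and autophagy genes, each gene by its brightest probe outside the middle. Of 101 such genes of 111 listed, 8 were called lower in 1G11-SOD3, against a background of 1.92% of 20315 genes, and none was called higher, against 1.19%. At an unadjusted p below 0.05, 24 were lower and 3 higher, where 10.2% and 6.44% of all genes were. These backgrounds are not matched for brightness: 83 of the 101 genes were well above background on all 6 arrays, but 9320 of the 20315. A matched share was not computed for genes. For probes the share of lower calls was 3.29% among those above background and 1.2% among all. The other 10 listed genes are not read outside the middle. Without 1 array, the count lower was 4, 0 and 2 without 1G11-mock replicates 1, 2 and 3, and 2, 5 and 1 without 1G11-SOD3 replicates 1, 2 and 3. Lower calls over all probes outside the middle fell in those fits too, from 593 to between 291 and 524. The share over all genes was not computed for them. After the position adjustment 2 genes were called lower and 1 higher, against 1.21% and 1.62% of all genes, so that neither count stood far from its background. With the replicate number as a block 9 were called lower, against 2.47% of all genes: the same 8 and Wipi1, a phosphoinositide-binding protein of early autophagosomes, named after its values were seen (log2 difference -1.02, limma adjusted p = 0.0347 with the block and 0.127 without).

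The proton pump, the V-type ATPase that acidifies lysosomes, held 3 of those 8 genes among its 16 measured. Atp6ap1 and Atp6ap2 are accessory subunits, and Atp6v0b belongs to the membrane sector. Atp6ap1 read 13.67, 14.19 and 14.32 on the 1G11-mock arrays and 11.89, 12.80 and 12.96 on the 1G11-SOD3 arrays, a difference of -1.51 (adjusted p = 0.0241). Atp6ap2 read 12.79, 12.89 and 12.70 on the 1G11-mock arrays and 10.96, 11.97 and 11.75 on the 1G11-SOD3 arrays, a difference of -1.23 (adjusted p = 0.0359). Atp6v0b read 13.76, 14.66 and 14.68 on the 1G11-mock arrays and 13.36, 13.24 and 12.97 on the 1G11-SOD3 arrays, a difference of -1.18 (adjusted p = 0.0485). The groups did not overlap for any of these 3, and Atp6ap2 alone of them was called after the position adjustment (-1.21, adjusted p = 0.0351). Of the 16 pump genes, 13 had a lower mean in 1G11-SOD3. Atp6v0e2 went the other way without overlap, with 9.37, 9.73 and 9.20 on the 1G11-mock arrays and 9.90, 10.66 and 10.50 on the 1G11-SOD3 arrays. Its difference of 0.92 (adjusted p = 0.103) was not called, nor was 1.10 with the position adjustment (adjusted p = 0.0534). Among the other lysosomal membrane proteins, Tpcn1, a calcium and sodium channel, read 15.07, 15.45 and 15.00 on the 1G11-mock arrays and 14.11, 13.71 and 13.24 on the 1G11-SOD3 arrays, and Ctns, the cystine exporter, read 13.04, 12.86 and 12.93 on the 1G11-mock arrays and 11.71, 12.03 and 11.38 on the 1G11-SOD3 arrays. Both pairs of groups were apart, by -1.49 (adjusted p = 0.0124) and -1.24 (adjusted p = 0.0172), and with the position adjustment by -1.43 (adjusted p = 0.00896) and -0.59 (adjusted p = 0.151). The remaining 3 were on the autophagy list of 19 genes measured: Gabarapl2 and Map1lc3b, which are conjugated to autophagosome membranes, and Fnip2, a partner of folliculin. Gabarapl2 read 14.64, 14.91 and 14.83 on the 1G11-mock arrays and 12.12, 13.81 and 13.64 on the 1G11-SOD3 arrays, a difference of -1.61 (adjusted p = 0.0483). Map1lc3b read 15.45, 15.82 and 15.58 on the 1G11-mock arrays and 14.82, 14.63 and 14.28 on the 1G11-SOD3 arrays, a difference of -1.04 (adjusted p = 0.0375). Fnip2 read 11.11, 10.80 and 10.88 on the 1G11-mock arrays and 10.05, 9.98 and 9.50 on the 1G11-SOD3 arrays, a difference of -1.09 (adjusted p = 0.0319). None of the 3 was called after the position adjustment, where Map1lc3b had a difference of -0.95 (adjusted p = 0.0417).

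No gene was called on the remaining lists. The 22 other hydrolases well above background on all 6 arrays had a median of -0.17, from -1.02 for the mannosidase Man2b2 (adjusted p = 0.11) to 0.87 for the phospholipase Pla2g15 (adjusted p = 0.186), which was called higher after the position adjustment (1.05, adjusted p = 0.0465). For delivery to the lysosome the 8 genes had a median of -0.25, from -0.56 for Gnptg, a subunit of the phosphotransferase that makes the mannose 6-phosphate tag, to 0.35 for Igf2r, the large mannose 6-phosphate receptor. Of the cathepsin inhibitors, 3 genes had a median of -0.45, from -0.57 for Serpinb6a to -0.31 for cystatin B (Cstb). The 3 other lysosomal transcription factors measured above background ran from -0.47 for Zkscan3 to -0.27 for Tfe3. Of 9 further cathepsins, 8 were near background on all 6 arrays, and none was well above it on all 6. Medians were -0.39 for the proton pump, -0.42 for the other membrane proteins and -0.63 for autophagy, beside -0.15 over all 9320 genes read the same way. With the position adjustment they were -0.23, -0.41 and -0.55, beside 0.02 over all genes.

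**Figure D4:**
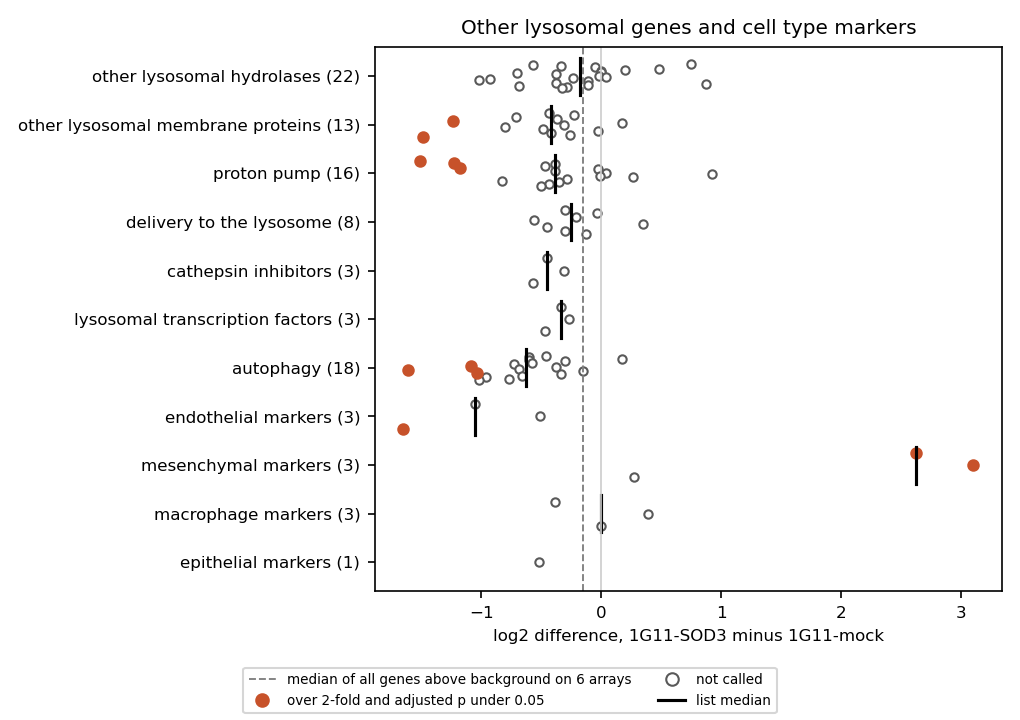
Log2 difference, 1G11-SOD3 minus 1G11-mock, of each listed gene well above background on all 6 arrays, with the number of genes in brackets, filled points for called genes, black bars for list medians and a dashed line at the median of all such genes (-0.15). The 8 called lysosomal and autophagy genes lie left of -1, and the called mesenchymal markers Col1a1 and Acta2 lie at 3.1 and 2.62.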

How the data were processed

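RNA from 3 1G11-mock and 3 1G11-SOD3 cultures was hybridised to 6 arrays (Agilent SurePrint Mouse G3, single dye) of 1 slide. Per the file headers, the authors read the spots with Feature Extraction 10.7.3.1, and the deposited scanner values are mean and median spot intensity, local background intensity and a processed signal intensity, none normalized between arrays. A deposited series table holds the authors' log2 values after quantile normalization. It was recomputed to within 0.005 from median pixel intensity with control spots kept, each column having a median of 7.52, and was used as an alternative.

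As in the methods of the study, intensities were corrected with normexp (offset 50) in limma 3.58.1 (R 4.3.3) and log2 values were quantile normalized. Starting from mean intensity and removing control spots were choices made here. Spots flagged as outliers (133 to 197 per array) were left out. Spots of a probe were averaged separately outside and in the middle of the array, giving 55971 rows fitted together (lmFit, eBayes, Benjamini-Hochberg). Called means over 2-fold with an adjusted p below 0.05. The script was checked on simulated data. The share of spots well above background was 34.2% to 36.0% on the 1G11-mock arrays and 38.4% to 43.8% on the 1G11-SOD3 arrays. The part of this difference in the results was not tested. No spot was saturated, and the number of arrays limits the precision. The position adjustment subtracted a smooth surface per array, fitted to 20453 spots. It lowered the standard deviation of the group difference among copies of 192 bright probes from 0.675 to 0.213. These probes were left out of the surface fit, but its smoothing width was chosen to make this value smallest. Other widths tried gave 0.215 to 0.239, and the value is no independent check.

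Deviations from the group means correlated weakly between same-numbered arrays (0.167, 0.101 and 0.157), against -0.17 to 0.056 for the other pairs. Within groups of 3 these correlations are not independent of each other. The replicate number is also the slide column. The main fit did not use this pairing, so p-values given without mention of a block are unpaired. A fit with the replicate number as a block was run as an alternative. Differences are between these cultures. Alternatives were other background corrections and scalings, the deposited table, dim probes or the middle left out, position adjustment, a replicate block, and each array left out.

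Every member is named, with values per array for each probe past an adjusted p of 0.05 and each gene's brightest probe outside the middle that was well above background on all 6 arrays. Of the other lists, called genes are named, or else the extremes above background, with Wipi1 and Atp6v0e2 added after their values were seen. Members, lists and tests were chosen with earlier results of these data known. Promoter windows are RefSeq sequences (GRCm38.p6). The array's probe coordinates are of a build not given in the sources used here.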

Additional observations from a re-analysis of the deposited data

How the results depend on the processing

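Over 33 member rows and 14 alternatives, Ctsh was called in every fit (log2 difference -1.70 to -1.05), the Lamp2 variant 1 probe in 8, Neu1 in 6 and the Lamp2 variant 2 probe in 5. The count of member probes called lower (4) was 2 with normexp values scaled to the 75th percentile, 2 with the middle left out, 1 with the position adjustment and 1 to 3 with an array left out. With processed signals after scaling to the 75th percentile it was also 4 of 36, in a fit that called 6675 of 49526 probes outside the middle lower. The 4 member probes were those of Ctsh, Ctsf (-1.28, adjusted p = 0.0262), Tpp1 (-1.36, adjusted p = 0.0308) and Ctso, which was well above background on 1 of 6 arrays. In that fit Neu1 (-0.70, adjusted p = 0.124) and the Lamp2 probes of variant 2 (-0.84, adjusted p = 0.0741) and variant 1 (-0.68, adjusted p = 0.122) were not called. No member probe outside the middle was called higher in any fit. In the middle, scaled normexp values called Ctsa (1.90), Glb1 (1.29) and Gusb (1.95) higher, and the fit without 1G11-mock replicate 1 called Ctsa (2.49) and Gusb (2.20) higher. The count of other lysosomal genes called lower (8) was 5 without background correction, 3 with normexp values scaled to the 75th percentile, 3 with the middle left out, 2 with the position adjustment and 0 to 5 with an array left out. Higher calls (0) were 2 with the scaled processed signal and 1 with the position adjustment. The replicate block changed no member call outside the middle (4 lower), and called the middle copies of Gusb higher (log2 difference 1.80, adjusted p = 0.0111). Among other lysosomal genes it added Wipi1 to the 8 (adjusted p = 0.0347). Over all probes outside the middle, calls were 327 higher and 593 lower, 709 and 6675 with the scaled processed signal, 512 and 402 with the position adjustment, 412 and 356 with the middle left out, 452 and 792 with the replicate block, 160 to 332 and 291 to 524 with an array left out, and 502 and 996 with scaled normexp values. The median of all probes above background moved from -0.17 to 0.02 with the scaled processed signal and the position adjustment, and 24 and 22 of 30 member probes lay below it.

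Signs turned for probes that were not called. With the position adjustment Lipa read 0.29, Npc1 0.09, Npc2 -0.47 and Ctsa 0.07 outside and -0.34 in the middle. With the middle left out Lipa read 0.16, Npc1 0.03 and Scarb2 0.04. With scaled normexp values Lipa read 0.13 and Scarb2 0.03, and with the scaled processed signal Lipa read 0.29 and Npc2 -0.49. With an array left out, the difference ranged from -0.25 to 0.29 for Ctsb, 0.00 to 0.21 for Gusb outside, -0.25 to 0.35 for Lipa, -0.28 to 0.04 for Npc1, -0.27 to 0.41 for Npc2, -0.35 to 0.03 for Scarb2 and -0.28 to 0.24 for Tfeb. The cause of these changes was not tested. Ctsc and Ctss, near background on every array, and Ctso and Ctsk, well above it on 1 and 2 of 6 arrays, give no measure of a difference, and groups of 3 arrays allow no finer precision than the intervals given.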
